A study of Mus musculus with 7 samples.

Results

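The genes described here make up the extracellular matrix of the dermis or mark the fibroblasts that secrete it. They are 34 genes chosen by name, 12 collagens, 5 small leucine-rich proteins, 8 elastic fibre genes, 2 genes of collagen processing and turnover, 5 matricellular proteins and fibronectin, and the 2 PDGF receptors. All 34 were found among the 14820 genes of the table of skin papilloma RNA. In that table the authors also marked 12235 genes (82.6%) as expressed in keratinocytes, and 23 of the 34 (67.6%) carry this mark.

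Papillomas are benign growths of the epidermis on a core of dermal stroma. The control papillomas (n = 4, numbered 1, 2, 3 and 5) came from tet-p16 mice and the p16 papillomas (n = 3, numbered 1, 2 and 3) from K5-rtTA/tet-p16 mice, which carry the same human p16 transgene together with the rtTA activator under the keratin 5 promoter. Both genotypes received 50 nmol of the mutagen DMBA on the skin at an age of 3 weeks. Doxycycline in the water, which lets rtTA switch the transgene on, and the tumor promoter TPA, applied 2 times per week, began 1 week later, lesions were followed for 23 further weeks, and mice were killed 10 days after the last TPA treatment, at 27 weeks of age. Because the keratin 5 promoter acts in keratinocytes, dermal fibroblasts were not the cells in which the transgene was driven. The transgene is human, so the mouse gene does not check the labels. Whether each papilloma came from a different mouse was not given in the sources used here, so p-values measure the spread between lesions.

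RNA of whole papillomas was profiled by CEL-Seq, which reads 1 end of each transcript. Libraries held 1158035 (p16 2) to 4365391 (p16 3) reads. Values are normalized read counts, that is, reads divided by a size factor of the library, and 1 read was worth 0.735 in p16 3 and 2.89 in p16 2. Values per papilloma are given below in the order control 1, 2, 3 and 5, then p16 1, 2 and 3. Fibroblast RNA was present in each lesion, since the defining genes Col1a1, Col1a2, Col3a1, Dcn, Lum and Pdgfra were detected in all 7. Of these, Col1a2, Col3a1, Dcn and Pdgfra carry the keratinocyte mark, and Col1a1 and Lum do not.

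Dermal fibroblasts secrete type I and type III procollagens, which are trimmed and assembled into fibrils. Small leucine-rich proteins such as decorin bind the fibrils and control their diameter, and microfibrils of fibrillin with their associated proteins carry elastin. Type IV collagen is different: it forms the network of basement membranes, under the epidermis and around vessels, and is made by several cell types.

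Of the 34 genes, 31 reached the level needed for testing, which was a group mean of 10 or more in controls or p16 papillomas. 2 of the 31 changed, both upward in p16 papillomas: Dcn, which encodes decorin, and Mfap5, which encodes a microfibril-associated glycoprotein (limma on log2(value + 1), Benjamini-Hochberg adjusted p under 0.05 over 10466 genes). That is 6.45% of the genes tested here, beside 5.62% of all genes tested. In the upward direction alone all genes gave 2.66%, and in the downward direction 2.96%. On the recovered reads edgeR called the same 2 genes and DESeq2 called Ogn as well, so no collagen of the 34 genes passed in any of the 3 tools. No gene of the 31 was called lower by any of them, while 2 (limma and DESeq2) or 1 (edgeR) were lower at an unadjusted p under 0.05. In limma 6 genes were higher at that level, where 9.66% of all genes were higher and 11.6% lower. The median log2 change of the 31 was 0.24, with 16 positive and 15 negative, and that of all genes tested was -0.02. The median of the 31 had no stable sign: it was -0.08 without control 3, -0.14 without p16 1, -0.19 without p16 3, 0.67 without p16 2, 0.40 without control 1 and 0.03 without control 5. In bulk tissue, a change in the number of fibroblasts and a change in RNA per fibroblast cannot be told apart.

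**Figure D1:**
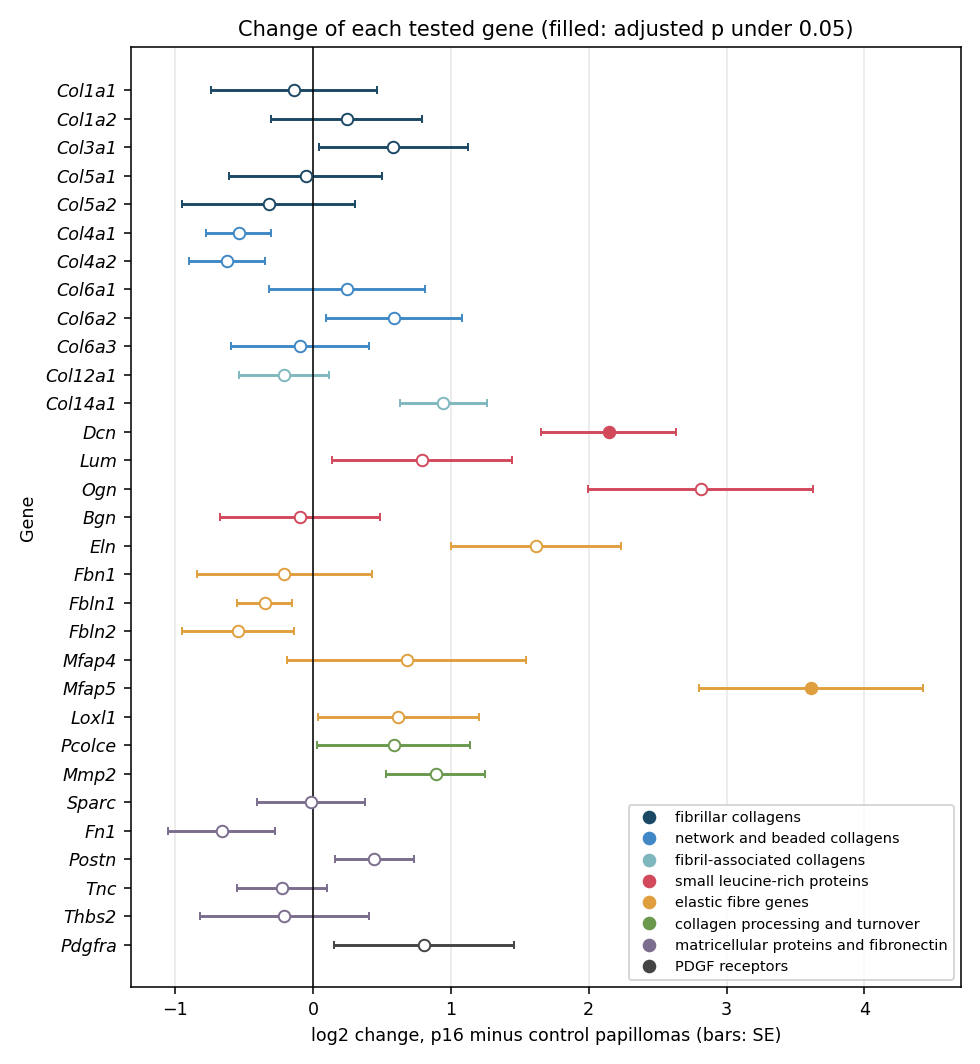
log2 change of the 31 tested genes between p16 (n = 3) and control (n = 4) papillomas, with its standard error (horizontal bars), coloured by class. Filled points passed an adjusted p of 0.05: Dcn at 2.14 and Mfap5 at 3.62, while the other 29 are open.

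The 5 fibrillar collagens, which form the load-bearing fibrils of skin, were the most abundant class, and none of them passed the test. Col1a2, the second chain of type I collagen, was read at 5968, 5882, 2128 and 2318 in the controls and at 6935, 1450.2 and 7846 in the p16 papillomas. The groups overlapped, since control 3, control 5 and p16 2 were low and the other 4 papillomas were high. Its log2 change was 0.24 (SE 0.55, limma adjusted p = 0.845).

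Col3a1, the single chain of type III collagen, stood at 3966, 3954, 1307 and 1321 against 3734, 1398 and 7628 (log2 0.58, SE 0.54, limma adjusted p = 0.583). Col1a1, the other type I chain, stood at 2425, 2729, 968 and 888 against 2207, 411 and 3028 (log2 -0.14, SE 0.60, limma adjusted p = 0.924). Both had the same 3 low papillomas as Col1a2. Col5a1 and Col5a2, the type V chains that help to start fibrils, ranged from 95.5 to 534 and from 28.9 to 252, with log2 changes of -0.06 and -0.32. The standard errors of the class, 0.54 to 0.63 on the log2 scale, set the size of change that could be detected between these lesions.

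The promoter windows of Col1a2 and Col3a1, 2 fibrillar genes with a RefSeq entry, are shown because their levels followed the same papillomas. The windows run from 250 bases before to 50 after the transcription start in RefSeq on GRCm38.p6, at chr6:4505368-4505667 and chr1:45311288-45311587, both on the plus strand. Capitals mark 3 motifs that were searched on both strands. The first is CCAAT, which reads ATTGG where it lies on the other strand. The next is TATAAA, which becomes TTTATA there, and the last is GGGCGG, read in reverse as CCGCCC.
Col1a2: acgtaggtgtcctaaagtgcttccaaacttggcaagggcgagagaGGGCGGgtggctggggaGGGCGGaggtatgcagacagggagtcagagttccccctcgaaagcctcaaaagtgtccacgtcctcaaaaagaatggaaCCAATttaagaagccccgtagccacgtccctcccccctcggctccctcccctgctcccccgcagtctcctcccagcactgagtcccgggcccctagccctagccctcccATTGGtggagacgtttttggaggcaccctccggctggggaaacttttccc
Col3a1: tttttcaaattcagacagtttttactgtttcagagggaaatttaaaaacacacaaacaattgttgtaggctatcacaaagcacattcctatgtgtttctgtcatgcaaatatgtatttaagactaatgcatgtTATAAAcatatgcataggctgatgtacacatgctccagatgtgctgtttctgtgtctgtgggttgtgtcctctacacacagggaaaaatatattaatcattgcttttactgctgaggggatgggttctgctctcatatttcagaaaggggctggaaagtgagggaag
The Col1a2 window held CCAAT and GGGCGG, and that of Col3a1 held TATAAA and neither of the other motifs. For 20 of the 34 genes a window was found, with 24 windows in all. A gene was counted if any of its windows held the motif, whereas the shares of all windows count single windows. The 2 are thus not quite alike. Among the 20 genes, CCAAT was in 6, beside 37.4% of all 32851 promoter windows. The share of all windows was 13.6% for TATAAA, found in 5 of the 20, and 35.7% for GGGCGG, found in 11. A match describes letters only and is not a bound site.

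Among network and beaded collagens no gene was called. Col4a1 and Col4a2 encode the chains of the common type IV network. Col4a1 stood at 195, 202, 129.7 and 114 against 99.5, 92.6 and 130.1 (log2 -0.54, SE 0.23, limma adjusted p = 0.210). For Col4a2 the values were 292, 308, 193 and 149.6 against 133, 113 and 206 (log2 -0.63, SE 0.28, limma adjusted p = 0.220). The 2 highest values of each gene were controls 1 and 2, p16 2 was lowest for both, and p16 3 lay within the range of the controls. Across all 7 papillomas the ratio of Col4a2 to Col4a1 stayed between 1.22 and 1.58.

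These 2 genes lie head to head on chromosome 8 and share their promoter region, which is why both windows are shown. Their starts are 21 bases apart on opposite strands, and the RefSeq windows (GRCm38.p6, chr8:11312777-11313076 on the minus strand for Col4a1 and chr8:11312555-11312854 on the plus strand for Col4a2) overlap by 78 bases. Capitals mark the same motifs.
Col4a1: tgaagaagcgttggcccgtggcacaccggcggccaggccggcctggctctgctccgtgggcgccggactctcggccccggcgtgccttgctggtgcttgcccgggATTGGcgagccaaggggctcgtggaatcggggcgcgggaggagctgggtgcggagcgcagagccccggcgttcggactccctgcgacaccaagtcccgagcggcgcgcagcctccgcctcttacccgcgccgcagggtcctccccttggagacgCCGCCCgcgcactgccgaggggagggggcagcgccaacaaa
Col4a2: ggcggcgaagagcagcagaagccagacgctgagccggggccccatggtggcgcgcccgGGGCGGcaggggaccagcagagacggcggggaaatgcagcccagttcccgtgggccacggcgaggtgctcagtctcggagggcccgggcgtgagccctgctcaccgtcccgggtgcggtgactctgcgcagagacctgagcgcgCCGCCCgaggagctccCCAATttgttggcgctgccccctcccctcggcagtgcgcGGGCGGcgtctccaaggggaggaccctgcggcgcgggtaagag
Both windows held CCAAT and GGGCGG on 1 strand or the other and neither held TATAAA.

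Type VI collagen forms beaded filaments around cells. Col6a2 stood at 427, 719.9, 153 and 182 against 616, 243 and 637 (log2 0.58, SE 0.49, limma adjusted p = 0.543). Here too control 3, control 5 and p16 2 were the 3 lowest. Col6a1 and Col6a3 had log2 changes of 0.25 and -0.09 and ranged from 60.8 to 309 and from 63.7 to 274.

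The fibril-associated collagens decorate the surface of fibrils. Col12a1 stood at 198, 169, 103 and 83.2 against 152, 72.4 and 129, with p16 2 lowest and 2 controls highest (log2 -0.21, SE 0.33, limma adjusted p = 0.757). Col14a1 behaved otherwise, at 19.6, 15.7, 19.2 and 12.6 against 39.0, 23.2 and 39.0. Its groups did not overlap, but the change did not pass (log2 0.95, SE 0.32, limma adjusted p = 0.111), and it rested on 69 control and 90 p16 reads.

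**Figure D2:**
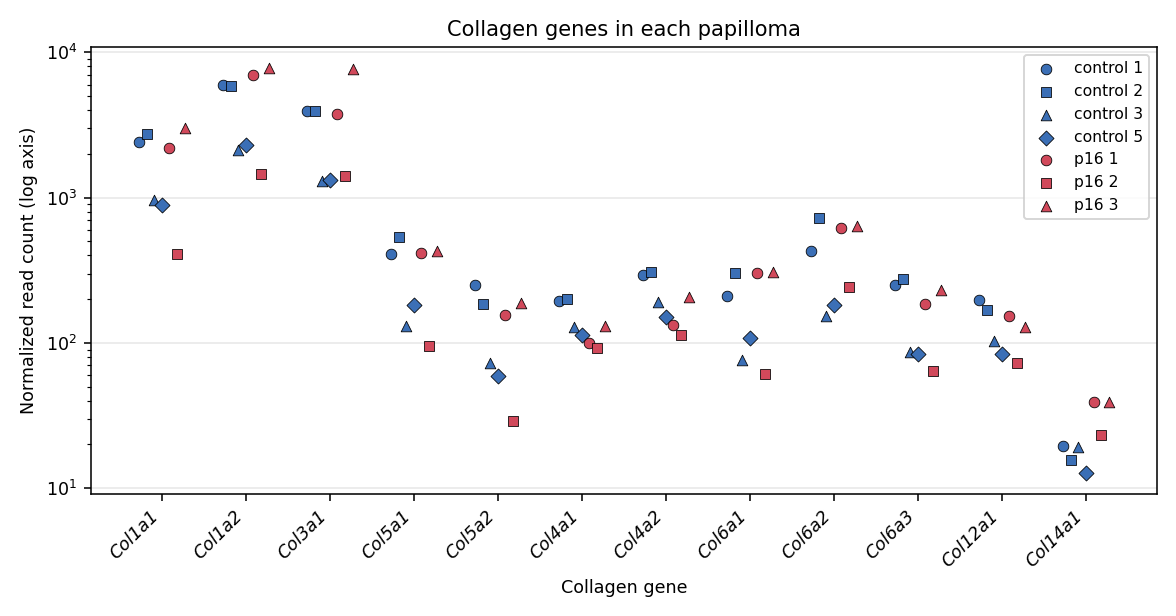
Normalized read counts (log axis) of the 12 collagen genes in each of the 7 papillomas, with controls in blue and p16 papillomas in red. For the 5 fibrillar genes on the left, control 3, control 5 and p16 2 lie below the other 4 papillomas, and for Col14a1 on the right all p16 values lie above the controls.

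Dcn encodes decorin, the small leucine-rich proteoglycan that coats collagen fibrils and binds growth factors such as TGF-beta. It lies at chr10:97479609-97518143 on the plus strand (GRCm38, GENCODE M21). Its values were 114, 245, 34.7 and 105 in the controls and 463, 318 and 615 in the p16 papillomas. All p16 values were above all control values, with control 2 the nearest, and p16 2, which was low for the fibrillar collagens, was not low here. The means were 125 ± 87.8 (SD, n = 4) and 465 ± 148 (SD, n = 3), and Dcn rose by 2.14 on the log2 scale (SE 0.49, limma adjusted p = 0.0280), or 4.42-fold. The call was lost without control 5 (adjusted p = 0.0651), p16 1 (0.0783), p16 2 (0.0511) or p16 3 (0.0862) in limma, while the log2 change stayed between 1.64 and 2.57 over all 7 omissions.

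Relative to type I collagen the same gene gave ratios of Dcn to Col1a2 of 0.0192, 0.0417, 0.0163 and 0.0455 in the controls and 0.0667, 0.220 and 0.0784 in the p16 papillomas, again without overlap. Of the reads of all 34 genes Dcn took 0.468% to 1.42% in the controls and 2.39% to 5.45% in the p16 papillomas. The ratio to Lum, the neighbouring small leucine-rich gene, did overlap, at 1.18 to 7.14 against 3.66 to 13.8.

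The other members of the class did not pass. Ogn, which encodes osteoglycin, stood at 6.83, 1.21, 0 and 8.43 against 33.6, 34.7 and 11.8, so its groups did not overlap (log2 2.81, SE 0.81, limma adjusted p = 0.0694). It rested on 17 control and 53 p16 reads, and the value of 0 in control 3 allows up to 2.74. With a pseudocount of 4 or in DESeq2 Ogn was called (adjusted p = 0.0423 and 0.00945). Bgn, encoding biglycan, a relative of decorin, stood at 98.2, 112, 42.0 and 27.4 against 74.0, 20.3 and 115, with overlapping groups (log2 -0.09, SE 0.58). Lum, encoding the fibril-binding lumican, ranged from 14.8 to 97.4 in the controls and from 23.2 to 126 in the p16 papillomas (log2 0.79, SE 0.65, limma adjusted p = 0.533). Fmod, encoding fibromodulin, was too low to test, with 10 control and 7 p16 reads.

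Mfap5, at chr6:122505845-122529290 on the plus strand (GRCm38, GENCODE M21), encodes a glycoprotein that binds fibrillin microfibrils. Its values were 6.83, 0, 1.83 and 0 in the controls and 18.8, 37.6 and 23.5 in the p16 papillomas, without overlap and with p16 2 the highest. The reads behind them were few, 10 in all controls and 59 in all p16 papillomas, and the values of 0 allow up to 3.62 in control 2 and 3.16 in control 5. The means were 2.16 ± 3.23 (SD, n = 4) and 26.7 ± 9.78 (SD, n = 3), and Mfap5 rose by 3.62 on the log2(value + 1) scale (SE 0.81, limma adjusted p = 0.0253). The call was lost without control 2 (adjusted p = 0.0503), control 5 (0.0510), p16 1 (0.0667), p16 2 (0.112) or p16 3 (0.0749) in limma, and the log2 change stayed between 3.24 and 4.23.

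The remaining elastic fibre genes gave no call. Eln, which encodes elastin itself, stood at 1.71, 3.62, 11.0 and 5.27 against 16.1, 26.1 and 9.56. Control 3 was above p16 3, so the groups overlapped (log2 1.62, SE 0.61, limma adjusted p = 0.155). Fbln2, encoding the matrix glycoprotein fibulin-2, stood at 146, 133, 96.8 and 98.0 against 121, 31.8 and 129, p16 2 being far the lowest (log2 -0.54, SE 0.41). Fbln1, encoding fibulin-1, was the steadiest of the 21 genes with a mean of at least 50, at 57.2, 70.1, 71.2 and 69.5 against 51.1, 46.3 and 59.5 (log2 -0.35, SE 0.20, limma adjusted p = 0.336). Fbn1 (fibrillin-1, the microfibril backbone), Mfap4 (a microfibril-associated protein) and Loxl1 (a cross-linking enzyme of elastic fibres) had log2 changes of -0.21, 0.68 and 0.62. Lox, the lysyl oxidase that cross-links collagen and elastin, was too low to test, at 20 control and 26 p16 reads.

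**Figure D3:**
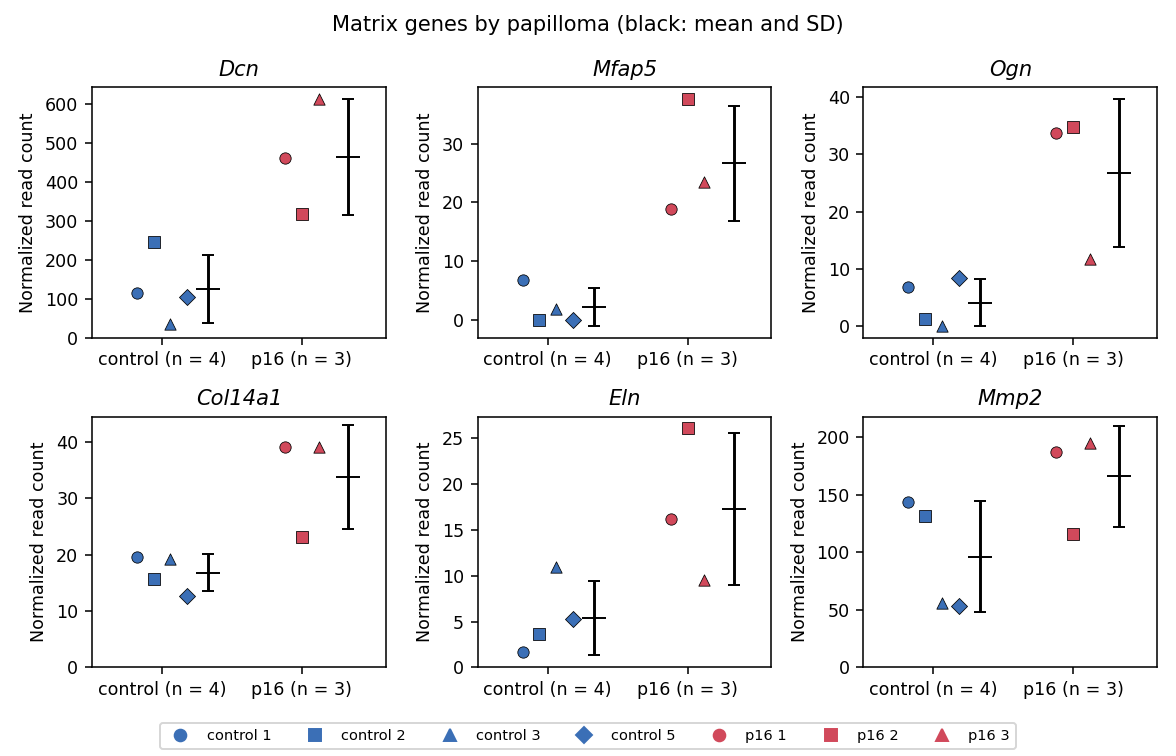
Normalized read counts of the 6 genes higher in p16 papillomas at an unadjusted p under 0.05, by papilloma, with the mean and SD of each group in black. In Dcn, Mfap5, Ogn and Col14a1 all 3 p16 values lie above all 4 control values, while Eln and Mmp2 overlap.

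Mmp2 encodes a gelatinase that degrades denatured and type IV collagen. It stood at 143, 132, 55.7 and 53.7 against 187, 116 and 195, where p16 2 lay among the controls (log2 0.89, SE 0.36, limma adjusted p = 0.178). Pcolce, which encodes an enhancer of procollagen trimming, stood at 8.54, 19.3, 4.57 and 8.43 against 28.2, 8.68 and 11.0, also with overlap (log2 0.58, SE 0.56).

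The matricellular proteins, which regulate cell contact with the matrix, gave no call. Sparc, encoding the collagen-binding protein osteonectin, stood at 2142, 2325, 1149.5 and 1138 against 1956, 753 and 2672 (log2 -0.02, SE 0.39, limma adjusted p = 0.988). Thbs2, encoding thrombospondin-2, stood at 519, 391, 264 and 117 against 474, 72.4 and 417 (log2 -0.21, SE 0.61). Both repeated the order seen for the fibrillar collagens. The fibronectin gene Fn1, the periostin gene Postn and the tenascin C gene Tnc had log2 changes of -0.67, 0.44 and -0.23, with overlapping groups.

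Pdgfra, the receptor that marks dermal fibroblasts, stood at 46.1, 55.6, 4.57 and 30.6 against 61.9, 31.8 and 44.8 (log2 0.80, SE 0.65, limma adjusted p = 0.528). Control 3 was the lowest by far. Pdgfrb, the receptor of pericytes and some fibroblasts, was too low to test, at 8.54, 8.46, 4.57 and 2.11 against 6.73, 2.89 and 9.56.

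In 4 of the 31 genes (Dcn, Ogn, Mfap5 and Col14a1) every p16 papilloma was above every control, in 0 every one was below, and 27 overlapped. Over all genes tested 19.6% did not overlap, 9.25% being higher and 10.4% lower in p16 papillomas. Non-overlap between the groups was thus not more frequent among the 31 than over all genes.

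The order of the papillomas was shared by much of the list. Control 3, control 5 and p16 2 were the 3 lowest papillomas for 18 of the 31 genes (58.1%), for all 5 fibrillar collagens and for 9 of the 12 collagens, against 2.83% of all genes tested. For the small leucine-rich genes it held in 2 of 4, and for the elastic fibre genes in 2 of 7. This order was picked after the values were seen and is a description without a test. Of the 3 low papillomas, p16 2 was the shallowest library of all, with 1158035 reads, while control 3 and control 5 held 3398927 and 3111494, more than control 2 (2723298) and p16 1 (2407665). The part of depth in this order was not tested. Among the 21 genes with a mean of at least 50, the highest papilloma exceeded the lowest by a median of 4.80-fold, while the median over all 5834 genes at that level was 1.78-fold.

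**Figure D4:**
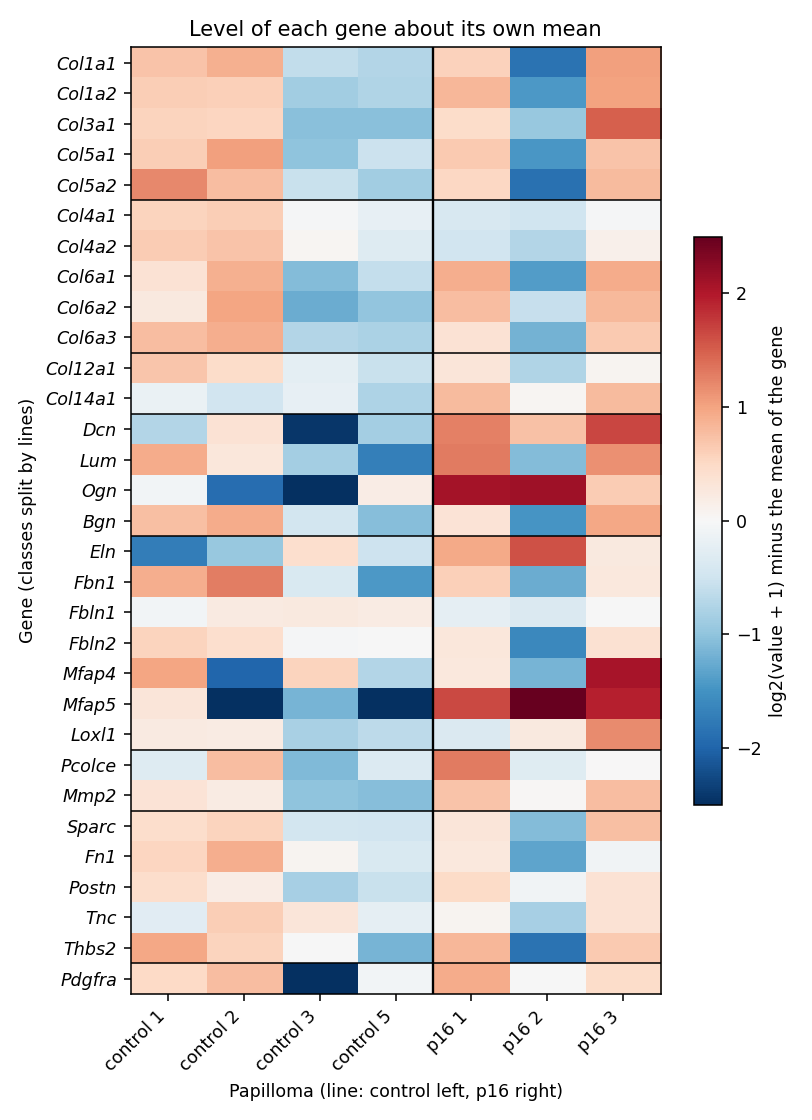
Level of each of the 31 tested genes in each papilloma, as log2(value + 1) minus the mean of the gene over the 7 papillomas, with classes split by horizontal lines and colours capped at 2.5 either way. Control 3, control 5 and p16 2 are blue for the fibrillar collagens, whereas Dcn, Ogn and Mfap5 are red in all 3 p16 papillomas.

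The 34 genes together took 0.525%, 0.587%, 0.239% and 0.226% of the reads of the controls and 0.588%, 0.174% and 0.801% of those of the p16 papillomas. The 95% Wilson interval for the lowest, p16 2, was 0.167% to 0.182%, and covers counting error only. The share of Col1a1, Col1a2 and Col3a1 within these reads moved less, at 59.4% to 66.9% in the controls and 55.8% to 72.0% in the p16 papillomas. The small leucine-rich class took 1.45% to 2.18% in the controls and 3.35% to 6.79% in the p16 papillomas. Most of its reads in the p16 papillomas were those of Dcn, which alone took 2.39% to 5.45%, against 0.468% to 1.42% in the controls. Lum, of the same class, overlapped, at 0.199% to 0.527% in the controls and 0.397% to 0.664% in the p16 papillomas. The ratio of Col3a1 to Col1a1 did not overlap, at 1.35 to 1.64 in the controls and 1.69 to 3.40 in the p16 papillomas. The gap was narrow, from 1.64 in control 1 to 1.69 in p16 1. No share over all pairs of genes was computed to set beside this ratio or that of Dcn to Col1a2. The ratio of Col1a2 to Col1a1 was 2.16 to 2.61 and 2.59 to 3.53, and overlapped. So did the ratios of Col6a2 to Col6a1 and of Col4a1 to Col1a2.

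Other matrix and fibroblast genes were read from 6 further lists, 74 of whose genes were tested. 2 rose and 2 fell in p16 papillomas, or 5.41%, near the 5.62% of all genes. Gas6, encoding a ligand of the TAM receptors, rose from 110.2 ± 17.3 (SD, n = 4) to 229.6 ± 36.0 (SD, n = 3), by 1.05 on the log2 scale (SE 0.19, limma adjusted p = 0.00698), and passed in each of the 7 fits that left out 1 papilloma. Thy1, a surface marker of dermal fibroblasts, rose by 1.09 on the log2 scale (SE 0.24, limma adjusted p = 0.0228), and lost the call without control 5 (0.0591), p16 1 (0.0710) or p16 2 (0.0906). Thy1 carries the authors' mark for expression in keratinocytes, and so do Dcn, Gas6, Col18a1 and Lamb1, while Mfap5 does not. Of the 17 other fibroblast markers tested, Thy1 among them, 12 had positive and 5 negative changes. At an unadjusted p under 0.05 in limma 4 of them were higher and 2 lower. The order of the fibrillar collagens was found in 7 of these 17 markers and in 20 of the 74 genes.

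Both genes that fell belong to basement membranes. Other such genes of these lists were not called and had changes of either sign. Their log2 changes included -0.95 for Hspg2, -0.41 for Lamc1, -0.09 for Col7a1, -0.003 for Nid1, 0.18 for Col15a1 and 0.31 for Lama4. Col18a1, whose product includes endostatin, fell by 0.88 on the log2 scale (SE 0.21, limma adjusted p = 0.0345), and Lamb1, encoding a laminin chain, by 0.85 (SE 0.22, limma adjusted p = 0.0498). Over the 7 omissions the adjusted p ran from 0.0217 to 0.122 for Col18a1 and from 0.0461 to 0.136 for Lamb1. Col18a1 lost the call without control 1 (0.0600), control 2 (0.0912), control 3 (0.0773), p16 1 (0.0695) or p16 2 (0.122), and Lamb1 kept it only without control 1. In edgeR and DESeq2 Col18a1 was called and Lamb1 was not (adjusted p = 0.0545 and 0.0709).

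None of the 15 tested genes of collagen folding and modification was called by limma, edgeR or DESeq2, and in limma 2 were lower at an unadjusted p under 0.05, the collagen lysyl hydroxylase gene Plod2 (log2 -1.41, adjusted p = 0.0882) and the gene for a prolyl hydroxylase subunit P4hb (-0.38, adjusted p = 0.191). The remaining genes of smallest p that did not pass in limma were Fkbp10 (-1.50) in that list, Col17a1 (-0.61) and Col5a3 (-0.99) among the collagens, Dpt (1.27, called in DESeq2) among glycoproteins, Dpp4 (1.17) and Apod (1.63) among fibroblast markers, Prelp (1.28) and Aspn (0.66) among small leucine-rich genes, and Mfap2 (1.05), Emilin2 (-0.40) and Ltbp4 (-0.54) among elastic fibre genes, all as log2 changes. Kera, the keratocan gene that neighbours Lum and Dcn on chromosome 10, was too low to test. It had no read in any control and 17 in the p16 papillomas, at least 9.35-fold higher against a floor of 3 reads over the control group, and was named after its values were seen.

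Markers of other cell types differed between the papillomas. The 14 skeletal muscle markers summed to 604 to 1166 in the controls and to 660, 13301 and 3360 in p16 1, 2 and 3, with none called by limma (smallest p Myh1, Ckm and Tnnt3, log2 2.68, 2.75 and 2.84, limma adjusted p = 0.0594, 0.0759 and 0.0880) and 10 of 14 higher at an unadjusted p under 0.05. On the recovered reads edgeR called 8 of the 14 higher and DESeq2 9. The 11 adipocyte markers did not move one way. Of the 5 that were tested 3 rose, Car3 (log2 3.45), Cfd (3.61) and Adipoq (2.78, limma adjusted p = 0.0272). The 6 others were too low to test. Among them Plin1 and Lep were at 0 in all controls, with 16 and 5 p16 reads, and Lep was at 0 in p16 1 as well. Plin1 and Cidec did not overlap between the groups, while Lep, Plin4, Retn and Pck1 did. The other 2 tested had negative changes that did not pass, Fabp4 (log2 -1.54, SE 0.46, limma adjusted p = 0.0764) and Lipe (log2 -0.52, SE 0.25, limma adjusted p = 0.249). Adipoq lost the call without control 2 (adjusted p = 0.0615), p16 1 (0.0522), p16 2 (0.0763) or p16 3 (0.107). The list summed to 1889 to 11341 in the controls and 1969 to 2602 in the p16 papillomas, and without Fabp4, its most abundant gene (1811 to 11250.2 and 1317 to 2303), to 77.6 to 155 and 299 to 857. Fabp4 was left out after its values were seen. The largest part of the remaining sum in the p16 papillomas was Car3, at 137, 698 and 295 in p16 1, 2 and 3. Car3 thus ranked these papillomas in the same order as the muscle sum. Dcn, Ogn, Mfap5 and Col14a1, like Car3, Cfd and Adipoq, were higher in every p16 papilloma than in every control. So were 9.25% of all genes tested. The part of adipocyte and of muscle RNA in the levels of these matrix genes was not tested. In p16 1, the p16 papilloma whose muscle sum lay within the range of the controls, Dcn, Ogn, Mfap5 and Col14a1 were at 463, 33.6, 18.8 and 39.0. That these values lay above each control follows from how the genes were picked.

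**Figure D5:**
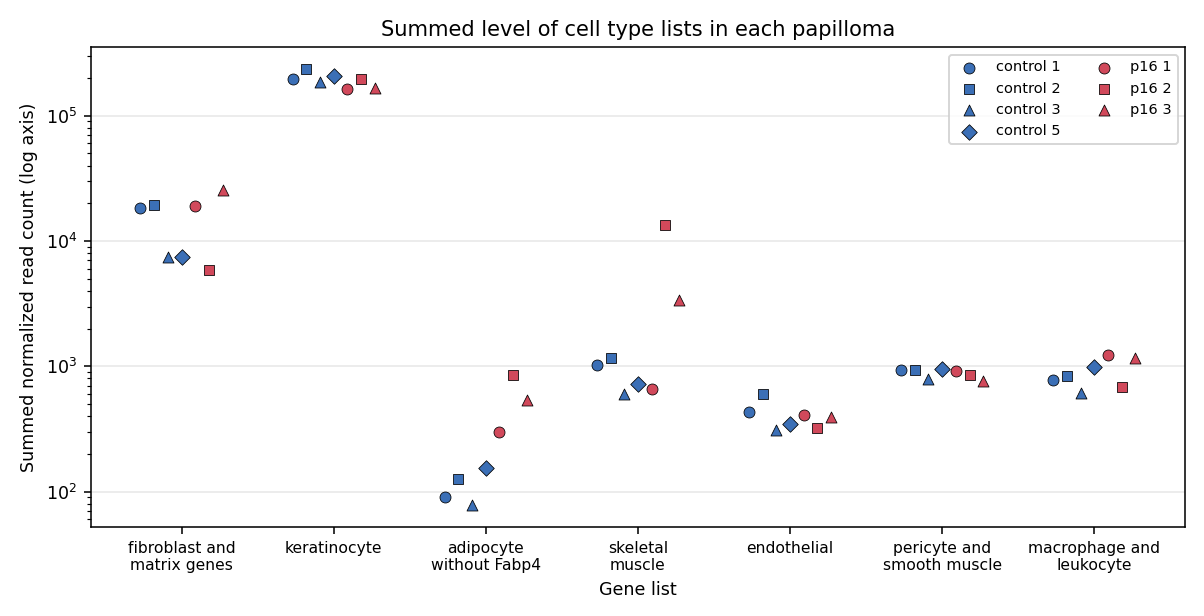
Summed normalized read counts (log axis) of the 34 genes and of 6 lists of cell type markers in each papilloma. Skeletal muscle markers are high in p16 2 and p16 3, the adipocyte markers without Fabp4 are higher in all 3 p16 papillomas, and the other lists overlap between the groups.

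Of the 12 keratinocyte markers, which summed to 184604 to 234771 in the controls and 163084 to 195292 in the p16 papillomas, Krt1 and Krt10 rose (log2 1.47 and 1.43) and Itga6 fell by 0.73 on the log2 scale (limma adjusted p = 0.0169). Itga6 lost the call without control 2 (adjusted p = 0.0585), control 5 (0.0546) or p16 1 (0.0693). None of the endothelial, pericyte and smooth muscle, macrophage and leukocyte, or Schwann cell markers was called by limma, edgeR or DESeq2, and at an unadjusted p under 0.05 in limma they counted 1 higher and 3 lower. The smallest p in these lists belonged to Tie1 (log2 -0.58), Emcn (-0.92) and Cdh5 (-0.71), to Acta2 (-0.74), Mcam (-0.98) and Des (2.24), to Ptprc (-0.62), Lyz2 (0.74) and Cd74 (0.49), and to Mbp (0.43). Des, the 1 counted higher, stood at 6.73, 162 and 50.0 in p16 1, 2 and 3, and so ranked them as the skeletal muscle sums did.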

How the data were processed

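RNA of 7 whole mouse papillomas was profiled with CEL-Seq. As stated in the study's methods and in the submitters' notes on processing, the authors trimmed the reads with Cutadapt, aligned them to GRCm38 with TopHat2, counted them with HTSeq and used DESeq2, in versions not given in the sources used here. The deposited signal values are the authors' normalized read counts, reads divided by a DESeq2 size factor per papilloma. The authors' deposited log2 fold changes, standard errors, Wald statistics (a score) and p-values hold their own comparison and were not used.

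Dividing each value by what 1 read was worth gave whole numbers (100% of values within 0.001 reads), so reads were recovered. The edgeR quasi-likelihood test on them called 543 genes, against 588 in limma. The design named edgeR only for raw counts, so log2(value + 1), a scale that understates changes of low genes, was tested in limma with its trend option. Tests were two-sided, over the 10466 genes whose mean reached 10 in controls or in p16 papillomas, with Benjamini-Hochberg adjustment.

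Papillomas were grouped by their titles. The genes and lists were chosen with earlier results of these data known. Values per papilloma are given for called genes, for the 2 most abundant of each class and for genes with an unadjusted p under 0.05, and Col1a1 was added after its values were seen. Of other lists, called genes and the 3 of smallest p are named. Positions are those of GENCODE M21 (14801 of 14820 identifiers matched), and promoter windows those of RefSeq. HTSeq settings for reads that match several genes were not given. The tests were tested on simulated reads. Alternatives were pseudocounts of 0.5 and 4, no filter, a mean of at least 50, library totals, TMM, edgeR, DESeq2, a replicate block and the omission of each papilloma. Fits used limma 3.58.1, DESeq2 1.42.0 and edgeR 4.0.16 under R 4.3.3. Summaries and plots used pandas 2.3.3, matplotlib 3.10.9 and numpy 2.4.6 under Python 3.11.15.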

Additional observations from a re-analysis of the deposited data

Results flagged for a closer look

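In Fbln1, which encodes fibulin-1, control 1 stood apart as the lowest of the 4 control papillomas at 57.2, while the other controls lay between 69.5 and 71.2. Among the 31 genes tested for a control papilloma that stands apart in this way it was the only one. Chance alone flags about 1 gene in every 20 tested, so 1 of 31 is no more than chance gives.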

How the results depend on the processing

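Dcn and Mfap5 were higher in p16 papillomas under each alternative that tested them. The call of both was kept with a pseudocount of 0.5 or 4, library totals, TMM, edgeR and DESeq2. Of the genes described, 0 were called without a filter (Dcn adjusted p = 0.141, Mfap5 0.0802) and 1, Dcn, with a mean of at least 50 over all papillomas, where Mfap5 was not tested. Leaving out 1 papilloma gave 0 to 2 calls (Dcn log2 1.64 to 2.57, Mfap5 3.24 to 4.23), and over all genes 273 to 546 in place of 588, against 248 without a filter. The small leucine-rich class had 1 call, 2 with a pseudocount of 4 or DESeq2 (Ogn, log2 1.97 and 2.66), 0 without a filter and 0 to 1 over the omissions. The elastic fibre class had 1 call, 0 without a filter or with a mean of at least 50, and 0 to 1 over the omissions. Other lists had 10 calls, 18 in edgeR, 23 in DESeq2 and 6 to 17 over the omissions. The median log2 change of the genes described was 0.24, -0.09 with a mean of at least 50 over all papillomas, and -0.19 to 0.67 over the omissions. The 0 calls among the 12 collagens held under each alternative.

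Same-numbered papillomas did not deviate together (correlations of deviations across genes -0.09, -0.01 and -0.05), and pairs with unlike numbers gave -0.07 to 0.11. The deviations were taken from the means of small groups. Whether equal numbers mark a shared litter or batch thus cannot be told from these correlations. With the replicate block 270 genes were called, and 0 of the 31 genes, 0 small leucine-rich and 0 elastic fibre genes among them (Dcn log2 2.16, adjusted p = 0.101, Mfap5 3.24, adjusted p = 0.141).

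Signs of uncalled changes were unstable: 41 of 486 values over 14 of the 31 genes had the opposite sign, none of them called. In edgeR and DESeq2 these were Col1a1 (0.12 and 0.11), Col5a1 (0.052 and 0.013), Bgn (0.12 and 0.023), Sparc (0.10 and 0.092) and, in edgeR, Thbs2 (0.035). Over the omissions the log2 change ran from -0.70 to 0.74 for Col1a1, -0.19 to 1.02 for Col1a2, -0.43 to 0.66 for Col5a1, -0.81 to 0.52 for Col5a2, -0.15 to 1.02 for Col6a1, -0.45 to 0.47 for Col6a3, -0.43 to 0.10 for Col12a1, -0.61 to 0.62 for Bgn, -0.72 to 0.35 for Fbn1, -0.89 to 0.10 for Fbln2, -0.16 to 1.45 for Mfap4, -0.40 to 0.52 for Sparc, -0.48 to 0.12 for Tnc and -0.69 to 0.66 for Thbs2. The cause of these shifts was not tested. Depth limits the low genes: in p16 2, 1 read was worth 2.89, so a value of 0 there allows up to 8.68.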
